A study of Zea mays with 6 samples.

Results

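Auxin made by the tryptophan pathway and moved between cells by membrane carriers marks where branches and spikelets start on the maize inflorescence. In this pathway an aminotransferase and a YUCCA-type flavin monooxygenase act in sequence to turn tryptophan into indole-3-acetic acid. Influx carriers of the AUX1 type bring auxin into cells, PIN proteins export it from one side of the cell, and a PINOID-type kinase phosphorylates PIN proteins and so affects the side on which they sit. Maize plants that lack the kinase, the aminotransferase or the monooxygenase form few branches and spikelets.

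The genes described here are 10 genes of this pathway, of the 39305 in the deposited table, taken by gene identifier. They are the synthesis genes vt2 (GRMZM2G127308) and spi1 (GRMZM2G025222), the influx carrier gene aux1 (GRMZM2G127949) and the kinase gene bif2 (GRMZM2G171822). The remaining 6 encode efflux carriers, namely PIN1a (GRMZM2G098643), PIN1b (GRMZM2G074267), PIN1c (GRMZM2G149184), PIN1d (GRMZM2G171702), PIN10a (GRMZM2G126260) and PIN10b (GRMZM2G160496). The symbol aux1 also belongs to other maize genes, and here it stands for GRMZM2G127949 alone.

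Poly(A) RNA was sequenced from tassels of 2 to 4 mm, the young male inflorescence, of greenhouse-grown plants, all in the B73 inbred background. The 3 wildtype libraries were each made from 5 pooled tassels, and the 3 Bif1;Bif4 libraries each from 10 pooled tassels of double heterozygous mutants. Bif1 and Bif4 are dominant mutations in 2 Aux/IAA proteins, the repressors that auxin removes. Nothing in the labels says whether pools came from separate plantings or days. The p-values therefore reflect differences among these pools, which may be technical.

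Values are normalized counts, that is, reads per gene divided by one size factor per library, from 21047225 to 24636859 reads per library. A gene was tested where it had at least 10 normalized counts in at least 3 libraries, which held for 21924 genes. A rise or fall means an adjusted p under 0.05 in limma, with adjustment over all of these genes. Fold changes from the fit are log2 of Bif1;Bif4 over wildtype after adding 1 normalized count. Of the meristem markers, 4 of 4 matched genes were detected, while zfl2 and tsh4 were sought but not matched. Summed levels of the 4 were 10799 to 11312 normalized counts in wildtype and 7998 to 9241 in Bif1;Bif4. Most of each sum was kn1, with means of 8969 and 7247, whose change did not pass (limma adjusted p = 0.073). Of the markers of green leaf, 5 of 9 stayed under 10 in every library or were listed at 0, with summed levels of 230.1 to 345.1 and 283.1 to 417.7. Of the 4 epidermal markers, 1 fell, ocl4 (log2 fold change -0.53, limma adjusted p = 0.011), where 2.91% of all tested genes fell. The changes of ocl5 and ocl3 were -0.37 and -0.34, while ocl1 went the other way at 0.29. None of these passed (adjusted p = 0.074, 0.064 and 0.19). Summed levels of the 4 were 6088 to 7105 in wildtype and 5501 to 5892 in Bif1;Bif4. Wildtype replicate 2 lay at one end of the second principal component (24.4% of the variance), apart from the other libraries. The mutated gene BIF1 fell (log2 fold change -1.94, limma adjusted p = 0.0029) and BIF4 did not pass (-0.77, adjusted p = 0.086).

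The pathway did not move in one direction in Bif1;Bif4 tassels. The aminotransferase gene vt2 was 2.98-fold lower, the kinase gene bif2 2.72-fold lower and the efflux carrier gene PIN1b 1.68-fold lower by group means. The influx carrier gene aux1 was 1.47-fold higher, and PIN10a, barely detected in wildtype, rose to 24 to 135 reads per library. The carrier genes PIN1a and PIN1d and the monooxygenase gene spi1 did not pass the test. Of the 9 genes tested, 2 rose and 3 fell, where 2.13% of all tested genes rose and 2.91% fell. PIN10a passed the filter only through its Bif1;Bif4 values, so these counts describe the genes and support nothing further. The median log2 fold change of the 9 was -0.27, against 0.01 over all tested genes.

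**Figure D1:**
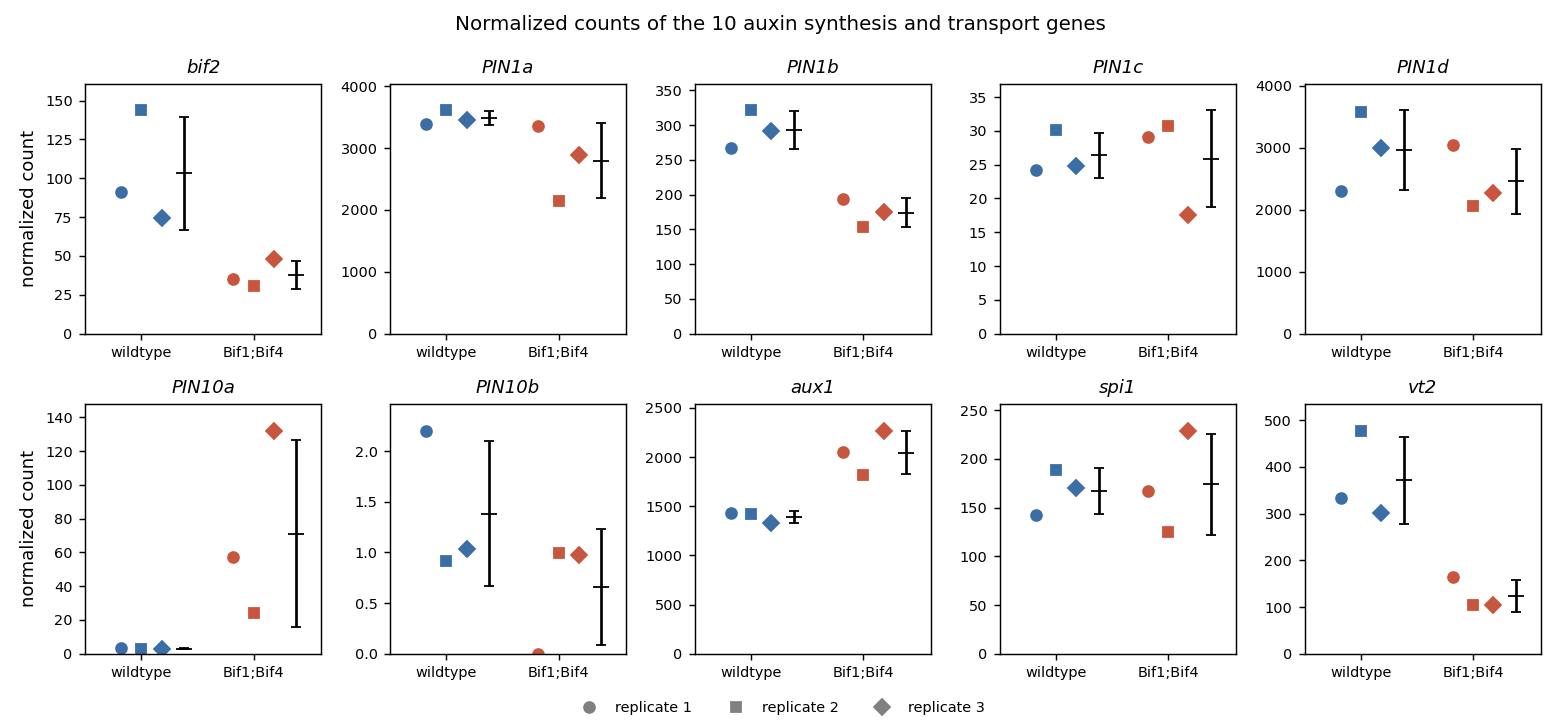
Normalized counts (y axis, linear and from 0, scaled per gene) of the 10 genes in the 3 wildtype (blue) and 3 Bif1;Bif4 (red) libraries. Symbols stand for replicates and the black bar for the mean ± SD (n = 3). The groups lie apart for bif2, PIN1a, PIN1b, PIN10a, aux1 and vt2, and they overlap for PIN1c, PIN1d, PIN10b and spi1.

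Synthesis was described first, in its order of action. The gene vt2 (vanishing tassel2) encodes the aminotransferase that converts tryptophan to indole-3-pyruvate. Wildtype replicates 1 to 3 gave 334, 478 and 302 normalized counts of vt2, and Bif1;Bif4 replicates 1 to 3 gave 164, 104 and 105. The mutant libraries were all lower than the wildtype ones, and wildtype replicate 2 was the highest of all. The mean went from 371 ± 93.6 to 124 ± 34.5 (SD, n = 3 in each group), and vt2 fell with a log2 fold change of -1.57 (SE 0.23, limma adjusted p = 0.011). With any 1 library left out vt2 still fell, with changes from -1.79 to -1.38 and adjusted p from 0.0089 to 0.047.

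The gene spi1 (sparse inflorescence1) encodes the flavin monooxygenase of the next step. Wildtype gave 142, 189 and 170 normalized counts and Bif1;Bif4 gave 167, 125 and 229. The groups overlapped, with the lowest and the highest value both in Bif1;Bif4. The means were 167 ± 23.4 and 174 ± 52.2 (SD, n = 3 each), and the log2 fold change of 0.02 (SE 0.23) was not past the threshold (limma adjusted p = 0.97). Its 95% interval ran from -0.50 to 0.55, so these libraries leave room for a fall to 0.708 or a rise to 1.46 times the wildtype level.

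Tryptophan itself is made by tryptophan synthase, whose beta subunits in maize are encoded by orp1 and orp2 (orange pericarp). In the wider list of auxin genes, orp1 (GRMZM2G169593) went from 922 ± 25.9 to 728 ± 46.1 and fell slightly (log2 fold change -0.34, SE 0.08, limma adjusted p = 0.047). That call is marginal, since orp1 did not pass with any 1 library left out (adjusted p from 0.080 to 0.17) or with median-centred values (0.052). The sister gene orp2 did not pass (-0.16, adjusted p = 0.49). Of the other auxin synthesis genes of the list, 3 of 10 were tested. With limma and with edgeR 0 of them passed, and Yucca6 alone had an unadjusted p under 0.05. Yucca6 (GRMZM2G019515), named after its values were seen, gave 39.6, 39.4 and 39.2 normalized counts in wildtype, against 68.0, 49.7 and 69.5 in Bif1;Bif4 (log2 fold change 0.63, limma adjusted p = 0.15). The groups did not overlap, but the change did not pass. The nitrilase genes nitrilase1 and nitrilase2, with the most reads of the 3, had changes of -0.02 and 0.05 (adjusted p = 0.93 and 0.87). The remaining 7, Yucca2, Yucca3, Yucca7, Yucca10, Yucca12, yuc and TAR3, stayed under 10 normalized counts in every library, and 4 of them had no read in any.

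The kinase gene bif2 (barren inflorescence2) encodes a PINOID-type protein kinase that phosphorylates PIN1a and BA1 in maize. Wildtype replicates 1 to 3 gave 91.4, 144 and 74.3 normalized counts of bif2, and Bif1;Bif4 replicates 1 to 3 gave 35.0, 30.8 and 47.9. All Bif1;Bif4 libraries lay below all wildtype libraries, and wildtype replicate 2 was well above the other wildtype libraries. The mean went from 103 ± 36.2 to 37.9 ± 8.94, and bif2 fell with a log2 fold change of -1.39 (SE 0.29, 95% interval -2.06 to -0.72, limma adjusted p = 0.036). These values rest on 72 to 157 reads per wildtype library and 31 to 49 per Bif1;Bif4 library. The call did not hold with any 1 of the 6 libraries left out, although the change stayed between -1.60 and -1.12. The adjusted p was then 0.082, 0.052 and 0.058 without wildtype replicates 1 to 3 and 0.11, 0.12 and 0.051 without Bif1;Bif4 replicates 1 to 3.

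Efflux carriers move auxin towards forming primordia and veins. PIN1b had 266, 321 and 292 normalized counts in the wildtype libraries, against 194, 153 and 175 in Bif1;Bif4, with a clear gap between the groups. The mean went from 293 ± 27.4 to 174 ± 20.7, and PIN1b fell with a log2 fold change of -0.75 (SE 0.14, limma adjusted p = 0.022). The call was lost without wildtype replicate 3 (adjusted p = 0.079), Bif1;Bif4 replicate 2 (0.080) or Bif1;Bif4 replicate 3 (0.063), while the change stayed between -0.83 and -0.66.

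PIN1a was at 3395, 3608 and 3452 in wildtype, a narrow range, and at 3362, 2148 and 2881 in Bif1;Bif4, a wide one. All Bif1;Bif4 libraries lay below the wildtype libraries, but Bif1;Bif4 replicate 1 by little. The log2 fold change of -0.34 (SE 0.15, 95% interval -0.69 to 0.01) did not pass (limma adjusted p = 0.25). PIN1d had 2296, 3581 and 3001 normalized counts in the wildtype libraries, against 3048, 2057 and 2262 in Bif1;Bif4. The groups overlapped, and the change of -0.27 (SE 0.20, 95% interval -0.75 to 0.22) did not pass (adjusted p = 0.52). PIN1c, at 24.2, 30.2 and 24.8 in wildtype and 29.2, 30.8 and 17.6 in Bif1;Bif4, rests on 18 to 33 reads per library. Its change of -0.06 (95% interval -0.77 to 0.65, adjusted p = 0.94) leaves falls and rises of over 1.5-fold possible at this depth.

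The PIN10 genes belong to the same carrier family and were near the limit of detection in wildtype. PIN10a had 3 reads in each wildtype library, which is 3.30, 2.75 and 3.09 normalized counts. In Bif1;Bif4 replicates 1 to 3 it had 59, 24 and 135 reads, which is 57.3, 23.8 and 132 normalized counts. All mutant libraries were far above wildtype, and they differed among themselves more than for any other tested gene of the 10, with an SD of 78.0% of the mean. PIN10a rose (limma adjusted p = 0.010), but its fitted log2 change of 3.84 depends on the added count of 1. Pooled over libraries, 9 wildtype and 218 Bif1;Bif4 reads gave a 23.5-fold ratio with an exact 95% counting interval of 12.2 to 52.1. Against the pooled wildtype reads, the ratio was 18.9 (9.32 to 43.4), 7.87 (3.53 to 19.2) and 43.6 (22.3 to 97.4) for Bif1;Bif4 replicates 1 to 3. These intervals cover counting error only and not the spread between pools. Without wildtype replicate 3 PIN10a narrowly missed the threshold (adjusted p = 0.051), and without any 1 Bif1;Bif4 library it no longer passed the filter on low values.

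PIN10b had 2, 1 and 1 reads in wildtype and 0, 1 and 1 in Bif1;Bif4. It is at or under the 3 reads that a count of 0 allows in both groups, so it was not tested and no ratio is given. Among other PIN genes of the list, PIN5a (measured under 2 identifiers), PIN5c and PIN9 were likewise under 10 in every library. PIN8 (GRMZM5G839411) had 153, 149 and 165 normalized counts in wildtype, against 127, 67.5 and 76.3 in Bif1;Bif4. The groups did not overlap, but its log2 fold change of -0.83 (SE 0.24) did not pass (limma adjusted p = 0.091), and it passed without Bif1;Bif4 replicate 1 (-1.11, adjusted p = 0.035).

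The influx carrier gene aux1 had 1429, 1417 and 1326 normalized counts in wildtype, against 2054, 1820 and 2265 in Bif1;Bif4. All Bif1;Bif4 libraries lay above all wildtype libraries, and the wildtype libraries were close together. The mean went from 1391 ± 56.6 to 2046 ± 223, and aux1 rose with a log2 fold change of 0.55 (SE 0.09, 95% interval 0.34 to 0.76, limma adjusted p = 0.014). The change was 0.48 to 0.63 with any 1 library left out, and it did not pass without wildtype replicate 3 (adjusted p = 0.063) or Bif1;Bif4 replicate 1 (0.060).

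Over the wider list of auxin synthesis, transport and turnover genes, excluding the 10 described above, 8 of 19 identifiers were tested. Of these 1 fell (orp1), 0 rose and 7 did not pass, where 2.13% of all tested genes rose and 2.91% fell. The median log2 fold change of the 8 was 0.01. The ABC transporter gene br2 (brachytic2), which acts in auxin movement along the stem, had 211, 500 and 306 normalized counts in wildtype, against 349, 278 and 553 in Bif1;Bif4, with overlapping groups (0.24, SE 0.38, limma adjusted p = 0.78). GH3 (GRMZM2G378106), of a family whose enzymes conjugate auxin to amino acids, had 220, 213 and 159 normalized counts in wildtype, against 433, 384 and 222 in Bif1;Bif4. The groups were separated only narrowly, and the change of 0.77 (SE 0.26) did not pass (adjusted p = 0.15). It passed without Bif1;Bif4 replicate 3 (1.06, adjusted p = 0.031) and with DESeq2 (0.81, adjusted p = 0.030). No influx carrier, receptor or further kinase gene was matched by symbol, so the list is thin in these roles.

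**Figure D2:**
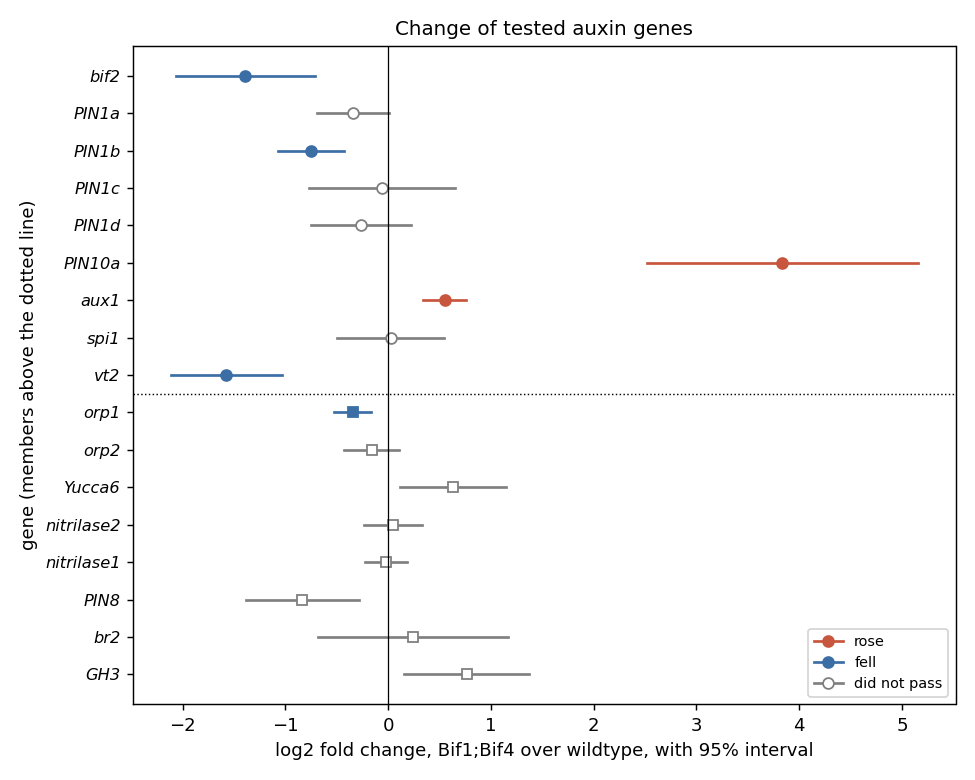
Log2 fold change of Bif1;Bif4 over wildtype (x axis) with its 95% interval from limma for the 9 tested genes of the 10 (circles, above the dotted line) and the 8 tested genes of the wider list (squares). Filled symbols passed at an adjusted p under 0.05: PIN10a and aux1 rose, and bif2, PIN1b, vt2 and orp1 fell. The interval of PIN1a ends just above 0.

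In the genes with more reads the spread between libraries exceeded counting error. In PIN1d the SD between wildtype libraries was 21.8% of the mean where counting alone would give 1.84%, and in vt2 it was 25.2% against 5.18%. In PIN1a the SD was 3.17% of the mean in wildtype and 21.9% in Bif1;Bif4, against 1.70% and 1.87% from counting. For PIN1c the SD was 12.5% of the mean in wildtype and 27.8% in Bif1;Bif4, against 19.5% from counting in each group.

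Within each group 1 library stood at one end of the range in most of these genes. Over the 8 genes with at least 10 normalized counts in all libraries, wildtype replicate 2 was the highest wildtype library in 7, all but aux1. Over all tested genes it was the highest in 35.1%. Likewise Bif1;Bif4 replicate 2 was the lowest mutant library in 7 of the 8, all but PIN1c, and in 34.6% of all tested genes. The genes are measured in the same pools, so these counts describe 2 libraries and not 8 independent events. Without wildtype replicate 2, the log2 fold change was -1.38 for vt2 (limma adjusted p = 0.010), -0.68 for PIN1b (0.039), 0.57 for aux1 (0.017), 3.78 for PIN10a (0.020) and -1.12 for bif2 (0.052).

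**Figure D3:**
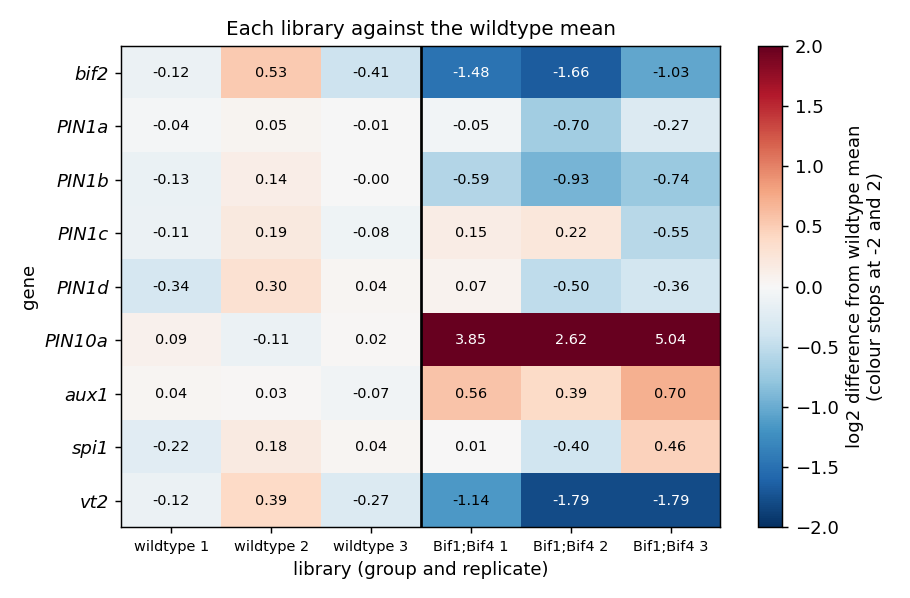
Difference of log2(normalized count + 1) from the wildtype mean for 9 genes (rows) in each of the 6 libraries (columns); red is higher, blue is lower and the number is the difference. In wildtype replicate 2 bif2 and vt2 stand at 0.53 and 0.39, and in Bif1;Bif4 replicate 2 PIN1a and PIN1d stand at -0.70 and -0.50.

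Beside these changes, 2 of the 4 markers of meristem tissue fell and 2 did not pass, where 2.91% of all tested genes fell. TD1 (thick tassel dwarf1), a receptor gene, and zfl1, a LEAFY-type gene, had log2 fold changes of -1.68 and -0.84 (limma adjusted p = 0.019 and 0.0084). The homeobox gene kn1 had 8969 ± 317 normalized counts in wildtype, against 7247 ± 566 in Bif1;Bif4 (-0.31, adjusted p = 0.073), and the receptor gene fea2 had a change of -0.01 (adjusted p = 0.95). Their part in the lower vt2, bif2 and PIN1b was not tested. In pooled tassels, fewer cells that express a gene and less RNA per cell cannot be told apart. Of the leaf markers 4 were tested, and 0 passed with limma or with edgeR; 0 had an unadjusted p under 0.05.

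The groups did not overlap in 6 of the 9 tested genes, where 26.9% of all tested genes had no overlap in either direction. These 6 were the 5 called genes and PIN1a. For PIN10a the filter on low values alone fixes the lack of overlap, since it passed only through Bif1;Bif4, so nothing is read from the count. In the authors' deposited table the same 5 genes had an adjusted p under 0.05. It was 5.5e-08 for vt2, 2.9e-06 for PIN10a, 2.0e-05 for aux1, 8.2e-04 for PIN1b and 0.0019 for bif2. These values come from the same 6 libraries and are no independent check. The share of all genes under 0.05 there was not counted, so nothing is read from this count either. The log2 fold changes of the authors' deposited table were -1.23 for vt2, -0.66 for PIN1b, -0.91 for bif2, 0.53 for aux1 and 1.25 for PIN10a. These have the same signs as the fit here and a smaller size for each of the 5, with the largest gap for PIN10a. DESeq2 on recovered reads gave 4.55 for PIN10a and -1.45 for bif2, and the cause of the difference was not tested. Of the other list and marker genes, 5 that did not pass in limma had an adjusted p under 0.05 in the authors' deposited table, namely kn1 (0.0070), BIF4 (0.018), GH3 (0.025) and the epidermal markers ocl5 (0.025) and ocl3 (0.033).

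**Figure D4:**
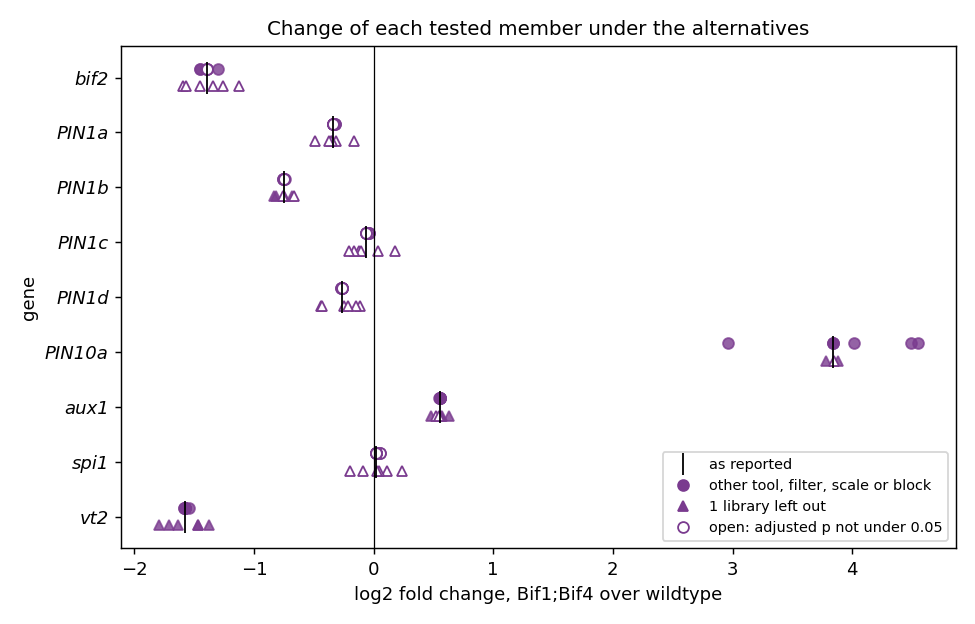
Log2 fold change (x axis) of the 9 tested genes as reported (black bar), under other tools, filters, scales or the replicate block (circles) and with 1 library left out (triangles); filled symbols had an adjusted p under 0.05. All symbols of vt2 are filled, bif2 loses the call for every triangle, and only PIN1c and spi1 have symbols on both sides of 0.

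Genes with the most similar profile were sought by the root mean square difference of log2 values over the 6 libraries, each gene centred on its own mean, among 1782 named genes with a mean of at least 50. The closest to bif2 were MYB64, MYB-IF35 and zmCL2-1, at 0.20, 0.23 and 0.24. Those closest to PIN1a were HB21 and the ribosomal protein genes arpp3 and arpp1a, at 0.10 each. For spi1 they were bx8, bHLH88 and dof3, at 0.09, 0.11 and 0.11. Of these 9 genes, 1 passed the test between genotypes, zmCL2-1 (GRMZM2G005552, -1.37, limma adjusted p = 0.026). MYB64 and MYB-IF35 had changes of similar size, -1.53 and -1.33, but did not pass (adjusted p = 0.10 and 0.11). The 9 genes were picked for likeness over the same 6 libraries, with both genotypes included. A change near that of the gene they resemble follows from this choice, so nothing is read from these tests.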

How the data were processed

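Poly(A) RNA-seq of 3 wildtype and 3 Bif1;Bif4 pools was analysed from a single deposited table. The tools named, per the submitters' processing notes, are TopHat2 2.1.1, HTSeq, DESeq2 and Trimmomatic. The build, the annotation and the strand setting were not given in the sources used here. The deposited values per library are a signal: reads per gene over a size factor that the authors applied to the whole library. The authors' deposited columns also hold the mean, a log2 fold change with its standard error, a Wald score and a p-value before and after adjustment. In each library 100.0% of values were whole multiples of 1 step within 1e-06 reads, so reads were recovered. A count of 0 allows up to 3 reads, 2.75 to 3.30 normalized counts, for counting error only.

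Limma 3.58.1 (trend, robust) on log2(value + 1) was fitted genome-wide across all tested genes, two-sided, with Benjamini-Hochberg adjustment; it was tested on simulated data. Alternatives were edgeR 4.0.16 and DESeq2 1.42.0 on recovered reads, median-centring, other pseudocounts and filters, a replicate block and leaving out each library. R 4.3.3 and Python 3.11.15 were used. Replicates differed by more than sampling noise in every pair, with a chi-square per degree of freedom from 9.89 to 24.5.

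Names came from RefSeq (Zm-B73-REFERENCE-NAM-5.0), whose gene table held 6 of the 10 identifiers; PIN1b, PIN1c, PIN10b and vt2 are named as in the rule that chose the genes. The 10 genes and all lists were chosen with earlier results of these data known. The wider list and the markers were matched by symbol. All 10 genes are named; of the wider list, per role, up to 3 called genes or otherwise the 2 with the highest mean. Further list genes (orp2, Yucca6 and those under the filter) are named outside this rule, after their values were seen. Near-identical copies can share reads, and how these were counted is not given.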

Additional observations from a re-analysis of the deposited data

How the results depend on the processing

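The 5 called genes kept their sign under every alternative that gave a value, and vt2 passed in all 14. DESeq2 called 1001 risen and 1117 fallen genes against 467 and 637; the cause was not tested. With a minimum of 50, 1 of the 10 genes rose, since PIN10a was not tested there. Leaving out 1 library, so that fewer were fitted, gave 158 to 745 risen and 244 to 554 fallen genes, with 0 to 2 risen and 1 to 2 fallen among the 10 and 0 to 1 in each direction in the wider list. DESeq2 and the replicate block each had 1 risen gene in that list, GH3, and orp1 was not called with median-centring, no filter or the block (0 fallen). With the replicate block 1 of the 10 genes fell, vt2, while PIN1b and bif2 had adjusted p = 0.059 and 0.072; over all genes 381 rose and 429 fell. Across genes, libraries with the same number had deviations from their group means with correlations of 0.07, -0.17 and -0.03, and not every library correlated best with its own number, so the numbers are not taken to pair the libraries. Over libraries left out, changes of either sign were seen for PIN1c (-0.20 to 0.18), spi1 (-0.20 to 0.24), nitrilase1 (-0.10 to 0.051), nitrilase2 (-0.079 to 0.12) and br2 (-0.053 to 0.57), none of which passed. No scaling moved the median of all genes by over 0.1 on the log2 scale. At this depth PIN10b and the wildtype level of PIN10a are not resolved.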
